A study of Mus musculus with 9 samples.

Results

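The 2 transfected groups compared here differed in which end of Notch signalling they received. One group carried JICD1, the intracellular domain of the Notch ligand Jagged1, and the other carried NICD1, the intracellular domain of the receptor Notch1. All cells were Ink4a-/- astrocytes from mouse brain, a genotype that lacks a brake on the cell cycle, grown in high-glucose medium with serum. They were transfected with pcDNA HA-JICD1 puro, with pcDNA NICD puro, or with pcDNA puro alone as control, and every group, control included, therefore carried the Ink4a deletion and a puromycin-resistance plasmid. Each group had 3 libraries of total RNA, so 6 of the 9 libraries in the series carry the comparison and the 3 control libraries serve as the shared reference. The labels give replicate numbers, and do not say whether the 3 libraries of a group came from separate cultures or transfections.

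The measure is a difference between 2 log2 ratios. For each gene in both of the authors' deposited tables, the log2 ratio of NICD1 over control was subtracted from the log2 ratio of JICD1 over control, so that the control cancels. A positive difference means a higher level in the JICD1 group and a negative difference a higher level in the NICD1 group. This could be done for 18182 of the 20076 genes listed in either table, and 17936 of the 18182 could be given a gene name. The tables hold 1 ratio per gene with no value per library, so that no difference below has a replicate error, a standard error or a p-value, and the sequencing depth is unknown. Beside each ratio the deposited tables give a score, headed Probability, that runs from 0 to 1. A gene is called scored here when that score reached 0.8 in at least 1 of the deposited tables, which held for 850 genes. The score describes a ratio over control, not the difference between JICD1 and NICD1. The words higher and lower describe the sign of a value and carry no test.

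Notch receptors are cut after they bind a ligand on a neighbouring cell, and the freed intracellular domain enters the nucleus, joins the DNA-binding protein RBPJ and a Mastermind coactivator, and switches on genes of the Hes and Hey families. The ligand Jagged1 is cut by the same class of proteases and also releases an intracellular domain, whose targets are less well known. In brain, Notch signalling is known for keeping neural progenitors uncommitted and for favouring astrocytes over neurons.

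The ligand's own gene did not follow the label of its construct. Jag1 stood at -1.39 (score 0.759) for JICD1 and at 1.36 (score 0.819) for NICD1 in the authors' deposited tables, a difference of -2.75. Notch1 stood at 1.33 for JICD1 and at 1.77 for NICD1 in the authors' deposited tables, a difference of -0.44. Whether reads from the plasmids add to either value was not given in the sources used here. Because of Jag1 the first group is named by its label only, as the libraries labelled JICD1, and each direction below rests on that label. The cell type could be checked only as ratios, since the deposited tables give no level. Of 16 astrocyte markers 14 had a ratio in both tables, with a median difference of -0.11; Aqp4 and Fabp7 were not among them.

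Over all 18182 genes the median difference was 0.04, with quartiles at -0.40 and 0.43. A difference of 1 or more was found for 1924 genes (10.6% of those tested), and one of -1 or less for 2481 genes (13.6%). Among scored genes, 167 were higher by at least 1 in the libraries labelled JICD1 (0.918% of all genes) and 431 were lower (2.37%). The scored genes nearest the limit were Tent5a at 1.01 and Cdh13 at 1.0 on the higher side, and Mapk11 and Adra1d on the lower side, both at -1.0 after rounding, with Tent5a and Mapk11 inside the limit. Some ratios rest on a group with no or almost no reads. For 1754 genes the JICD1 or the NICD1 group was inferred to be at a common floor, 694 of them from equal negative ratios in both tables and the rest from where their ratio and score fall on the curve that such genes trace. For those only the deposited ratios are given. Apart from genes with equal ratios, the inference reaches only ratios of a size from 1 to 9.45. Outside that range a group with no or almost no reads goes unmarked.

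The genes that separated the groups most were of mixed function. The ranking leaves out genes without an established symbol and genes with a group inferred at the floor, Sox11, Mmp3 and Mmp13 among them. On the lower side, the 12 scored genes with the largest differences were Plac8 (-9.71), Cxcl12 (-9.67), Fndc3c1 (-9.56), Creb3l1 (-9.54), Mmp10 (-9.52), Cdkn2b (-9.43), Tpm2 (-9.07), Igfbp2 (-9.06), Has2 (-8.65), Plcl2 (-8.59), Bhlhe22 (-8.51) and Cyba (-8.49). Cxcl12 is a chemokine, Creb3l1 a transcription factor that promotes collagen secretion, Mmp10 a matrix protease, Cdkn2b an inhibitor of cyclin-dependent kinases, Tpm2 a tropomyosin and Has2 a hyaluronan synthase. These differences arose in more than 1 way. Plac8 and Cxcl12 lay far below control with JICD1, at -8.88 and -9.16 in the authors' deposited tables, and slightly above control with NICD1, at 0.83 and 0.51. Creb3l1, Igfbp2, Plcl2 and Cyba lay near control with JICD1, between -0.01 and 0.42, and between 8.51 and 9.96 above it with NICD1 in the authors' deposited tables. Tpm2 and Mmp10 were on opposite sides of control, with -6.61 against 2.47 and -3.54 against 5.98 in the authors' deposited tables. Cdkn2b and Bhlhe22 had a control group inferred to be at the floor. The JICD1 scores of Fndc3c1, Creb3l1, Cdkn2b, Igfbp2, Has2, Plcl2, Bhlhe22 and Cyba were all between 0.136 and 0.216 in the authors' deposited table. For Fndc3c1, Creb3l1, Igfbp2, Plcl2, Bhlhe22 and Cyba the JICD1 ratio lay between -1 and 1, where the inference of a floor does not reach, so the size of their differences may be set by a level near 0. The NICD1 ratios of Creb3l1, Cdkn2b and Has2 were above 9.45, where that inference does not reach either.

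On the higher side the 12 genes were Gpnmb (9.59), Pou3f2 (8.32), Dnajc27 (7.24), Ces2g (7.11), Dnali1 (6.70), Hoxb6 (6.46), Neurl1b (6.24), Rbmy (5.64), Chst10 (4.58), Ces1g (4.45), Lmo1 (4.28) and Hoxa10 (4.15). Gpnmb is a transmembrane glycoprotein of lysosomes and melanosomes, Pou3f2 a neural transcription factor, and Neurl1b a ubiquitin ligase of the Neuralized family, which acts on Notch ligands. Most of these differences came from a low value with NICD1. Gpnmb stood at -8.53 with NICD1 and 1.06 with JICD1, and Dnajc27 at -7.33 with NICD1 and -0.09 with JICD1, in the authors' deposited tables. Pou3f2 was the reverse case, at 9.18 with JICD1 and 0.87 with NICD1 in the authors' deposited tables, with a control inferred at the floor. Its NICD1 score was 0.1599, with a ratio where no floor could be inferred. A level near 0 in the NICD1 group may thus set the size of that difference. Neurl1b stood at 2.10 with JICD1 (score 0.833) and -4.14 with NICD1 (score 0.791) in the authors' deposited tables. Reads of Rbmy are uncertain, since 100% of its 31-base words are shared with other annotated genes.

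**Figure D1:**
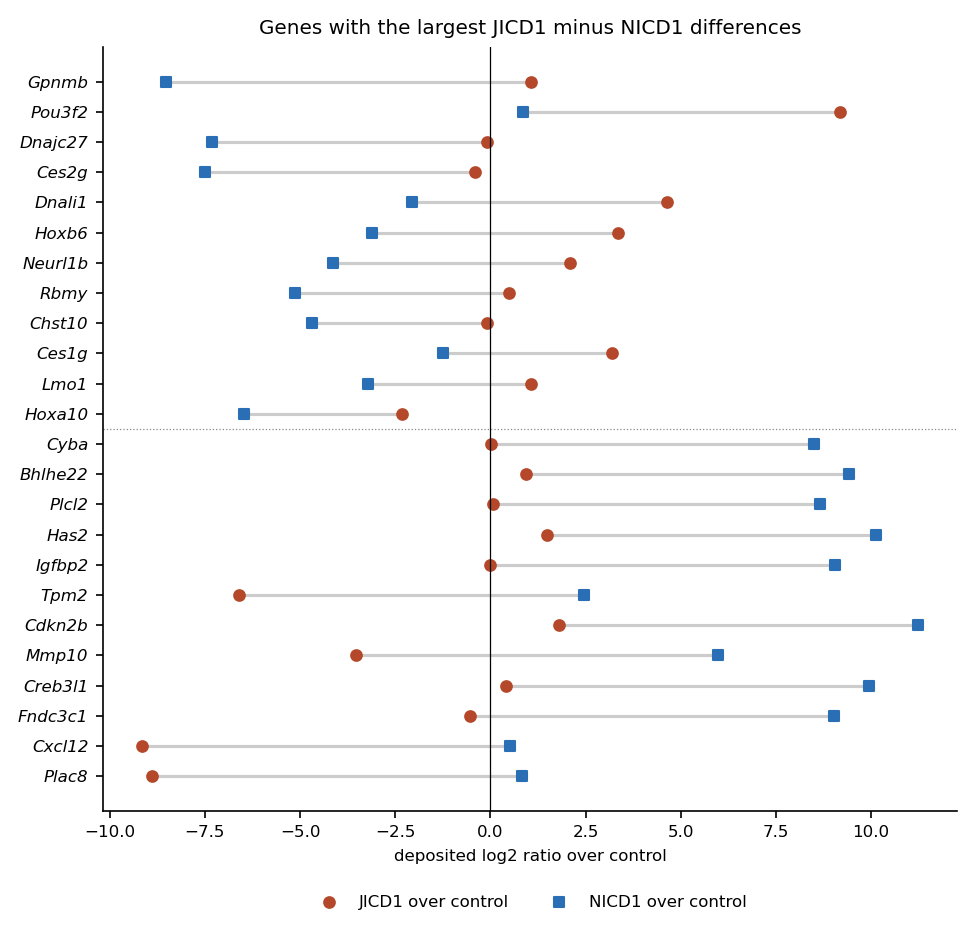
Deposited log2 ratios over control (x axis) of the 24 named, scored genes with the largest differences and no group inferred at the floor. JICD1 values are circles and NICD1 values squares, 1 value per gene and group with no error. Above the dotted line the JICD1 value is higher, led by Gpnmb; below it the NICD1 value is higher, with Plac8 and Cxcl12 low only for JICD1 and Igfbp2 and Cyba high only for NICD1.

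The canonical readout of Notch signalling separated the groups in the direction of the receptor. Of 9 measured effectors, 5 were lower by at least 1 in the libraries labelled JICD1, 1 was higher, and the median difference was -1.52. All 5 measured members of the Hes and Hey families had differences below 0. Hes1, the best known direct target, stood at -0.54 with JICD1 and 1.58 with NICD1 in the authors' deposited tables, a difference of -2.13. Nrarp, a feedback inhibitor of the nuclear complex, stood at -0.96 and 2.84 in the authors' deposited tables, a difference of -3.79. Hes1 and Nrarp were the 2 scored members. Hey1 had a difference of -4.03 and Hey2 one of -3.32, and neither was scored; Hey2 had its control inferred at the floor. Hes7 (-1.52) and Hes6 (-0.97) followed with smaller differences, as did Dtx4 (-0.53), whereas Dtx3 (0.32) and the repressor Bcl6 (1.04) lay above 0. Hes2, Hes5, Heyl and Dtx1 had no ratio in both tables and are not analysed here.

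As listed here, the pathway's machinery hardly separated the groups. The 40 measured components had a median difference of -0.09, and 33 of them lay between -1 and 1. Among these 40, Jag1 was the single scored component past 1. Other components past 1, named after their values were seen and none of them scored, were the receptors Notch3 (-1.99) and Notch4 (-1.15), the ligand gene Dll4 (-1.38), the coactivator Maml2 (-1.46), the Neuralized ligase Neurl1a (-2.37) and, on the higher side, the secretase subunit Aph1b (1.64). Rbpj itself had a difference of 0.28, and the proteases Adam10 and Adam17 had -0.15 and 0.24. Neurl1a and Neurl1b, relatives in the same ligase family, thus lay on opposite sides, at -2.37 and 6.24. Neurl1b, scored with JICD1 (0.833), was not on the list of components, so the counts and median given here leave it out.

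**Figure D2:**
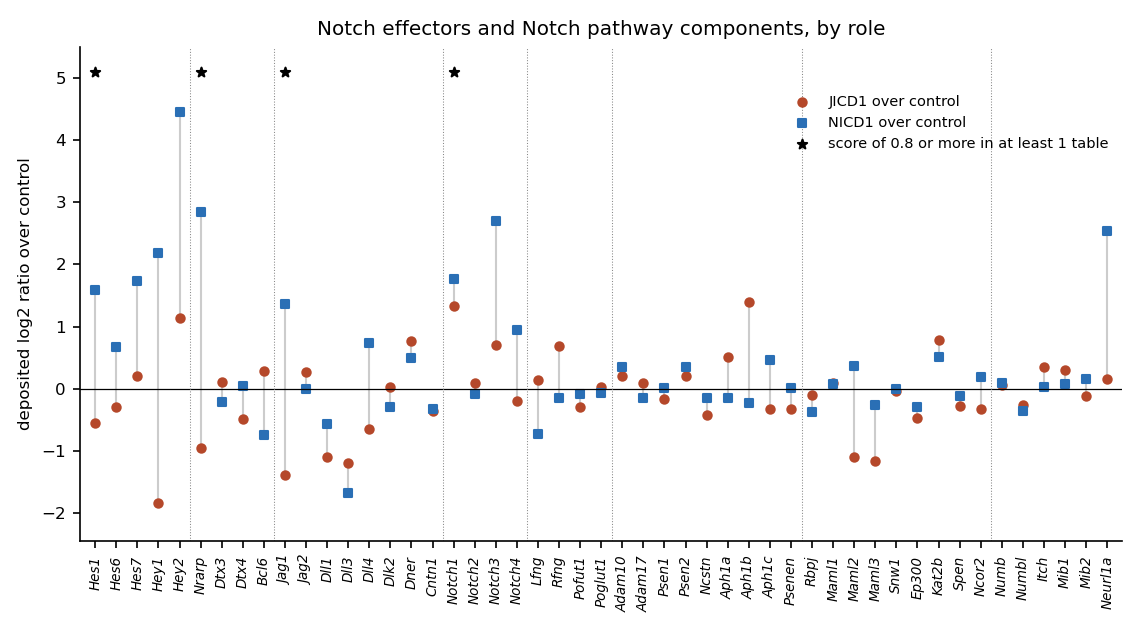
Deposited log2 ratios over control (y axis) for the 9 Notch effectors and 40 pathway components, JICD1 as circles and NICD1 as squares. Dotted lines separate roles in the order Hes and Hey genes, feedback genes, ligands, receptors, sugar transfer, cleavage, nuclear complex and endocytosis. The NICD1 value is above the JICD1 value for all 5 Hes and Hey genes, while most components lie close to 0 in both; stars mark genes with a score of 0.8 or more in at least 1 table.

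The RBPJ binding core was searched in promoter sequence because Hey2 and its relatives are the known RBPJ targets. The 250 bases before the annotated start, from RefSeq on GRCm38.p6, were available for 10852 of the 18182 genes. Hes1 and Hey1 were not among them, so their promoters were not searched. The core TGGGAA, on either strand, was found in 31.1% of the promoters of scored lower genes (89 of 286), in 19.4% of those of scored higher genes (24 of 124), and in 24.2% of all genes of the tables. Among promoters of scored genes with a difference between -1 and 1 the core stood in 17.1% (30 of 175). Across all promoters of the RefSeq table it stood in 21.6%. These shares are descriptions, and a match is not a binding site. The Hey2 promoter, chr10:30842784-30843033 on the minus strand, holds 1 match, on the other strand and 207 bases before the start, printed in capitals.
Hey2: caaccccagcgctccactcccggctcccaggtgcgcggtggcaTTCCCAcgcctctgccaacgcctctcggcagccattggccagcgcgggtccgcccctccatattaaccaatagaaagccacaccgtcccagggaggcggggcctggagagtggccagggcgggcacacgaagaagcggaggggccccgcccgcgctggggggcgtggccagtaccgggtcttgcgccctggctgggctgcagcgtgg

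Among 38 functional lists and 7 lists of cell type markers, the lists at the lower end were those of Notch effectors, matrix, contraction, cytokines and chemokines, together with markers of microglia, fibroblasts and reactive astrocytes. Lists at the upper end lay closer to 0. Each count below is to be read against the 10.6% of all genes higher and the 13.6% lower by at least 1. The lists were drawn up with results of these data known, so their order is a description of the data and not independent evidence.

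**Figure D3:**
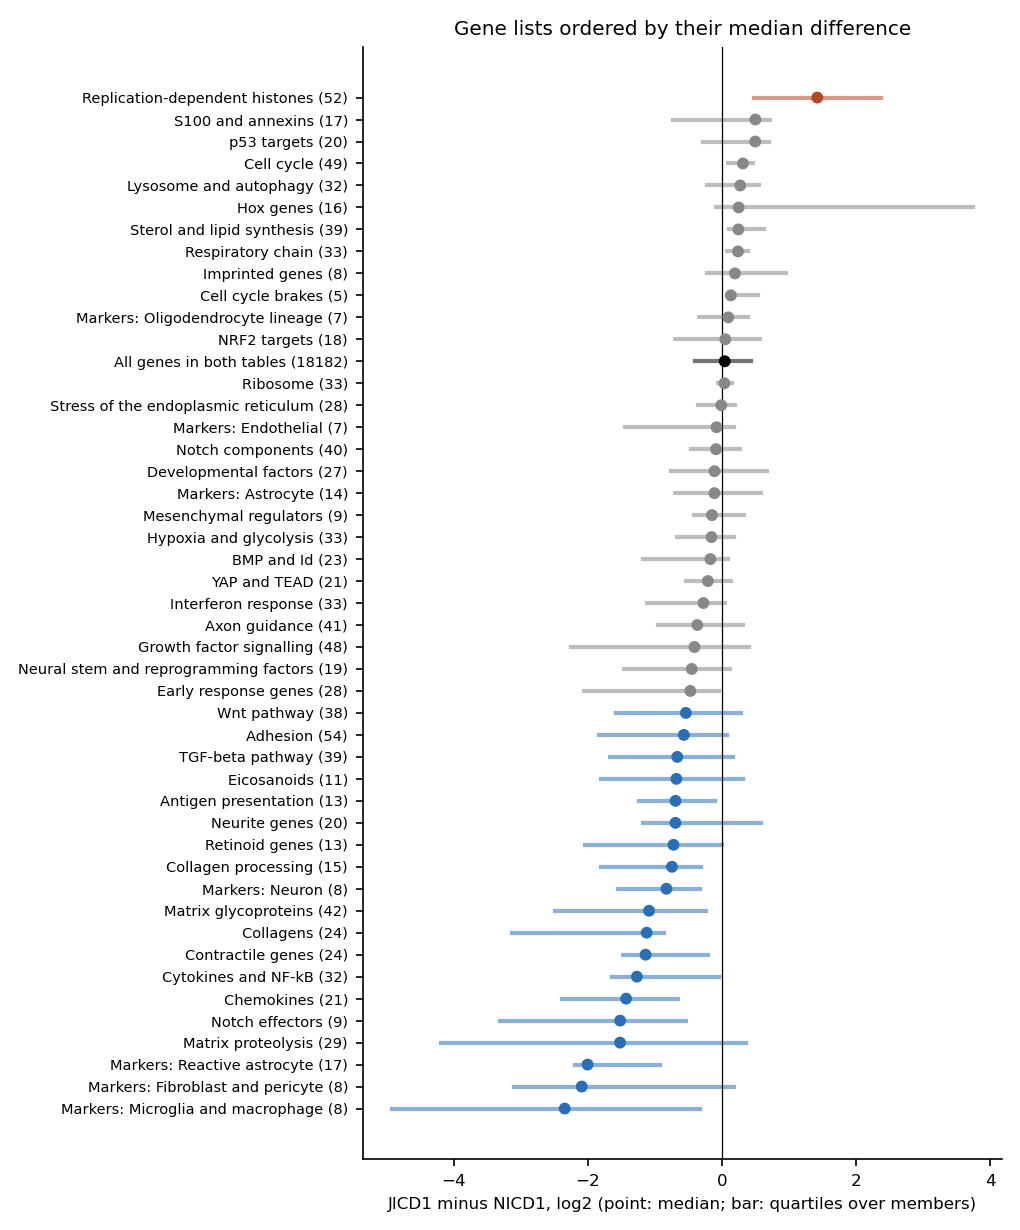
Median difference of each gene list (point) with the quartiles over its members (bar), in log2, JICD1 minus NICD1; the number of members in both tables stands in brackets and all 18182 genes are in black. Lists at or below -0.5 are in blue and the list at or above 0.5, replication-dependent histones, in red; the longest bars mark lists whose members differ widely.

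Genes of the contractile apparatus lay below control with JICD1 and slightly above it with NICD1. Of 24 measured members 13 were lower by at least 1 and none higher, with a median of -1.14, and the median ratios over control were -0.50 and 0.19. The smooth muscle actin gene Acta2 stood at -3.74 with JICD1 and 1.71 with NICD1 in the authors' deposited tables, both scored, a difference of -5.45. Tagln, which encodes the actin-binding protein transgelin, had the same direction but another course. It was near control with JICD1, at -0.16, and at 4.21 with NICD1 in the authors' deposited tables, a difference of -4.38. Its JICD1 score was 0.1969, with a ratio where no floor could be inferred. A level near 0 may thus set the size of that difference. Cald1 (-1.52), Tpm1 (-1.47), Myh9 (-1.42) and Vcl (-1.31), which encode caldesmon, a tropomyosin, a non-muscle myosin chain and vinculin, were scored with smaller differences. The transcription factor gene Srf, whose product drives many of these genes, had a difference of 0.10, and its coactivator gene Mrtfa one of -1.25 without a score of 0.8.

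TGF-beta signalling induces many contractile and matrix genes, and its own genes separated by role. All 6 measured ligand genes had differences below 0. Tgfb1 stood at -1.03 with JICD1 and 0.60 with NICD1 in the authors' deposited tables, a difference of -1.63, and Inhba, an activin subunit, had a difference of -1.82. Of 8 genes for latency and activation 4 were lower by at least 1, with -7.78 for Lrrc32 and -5.19 for Ltbp2, and 1 was higher, the latency gene Ltbp4 (1.40, not scored). With JICD1 Lrrc32 stood at -0.73 (score 0.1618) in the authors' deposited table, where no floor could be inferred. The size of its difference may thus be set by a level near 0. Of 8 receptor genes 6 lay above 0, with a median of 0.42, and none was scored. The Smad genes had a median of 0.00. Of 11 target genes, 7 were lower by at least 1 and none higher. Ccn2 and Pmepa1 differed by -3.77 and -2.89, and with NICD1 both lay near control, at -0.24 and 0.10 in the authors' deposited tables. Over the 21 genes of the YAP and TEAD list, a pathway that senses tension and density, the median was -0.21, and Tead3 (-2.14) was the scored member past 1. In the BMP list 23 genes had a median of -0.17. Scored members past 1 were the antagonists Fstl1 (-3.78) and Nbl1 (-1.44), the procollagen protease Bmp1 (-1.63) and the target Id3 (-1.28).

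Of 24 measured collagen genes, 22 had a lower ratio with JICD1 than with NICD1. A difference of -1 or less was found for 14 and of 1 or more for none, and the median was -1.12. Col5a3 stood at -4.84 with JICD1 and 0.74 with NICD1 in the authors' deposited tables, a difference of -5.58. Col7a1, which forms anchoring fibrils, followed at -4.94. The collagen VI genes Col6a1 and Col6a2 differed by -4.49 and -3.75, although both were also below control with NICD1, at -1.27 and -1.22 in the authors' deposited tables. Col1a1, the main fibril chain, stood at -1.19 with JICD1 and 1.74 with NICD1 in the authors' deposited tables, both scored. Col3a1 was an exception named after its values were seen, with a low ratio in both groups (-2.81 and -3.31 in the authors' deposited tables) and a difference of 0.50. Of 15 genes for enzymes that process collagen 6 were lower by at least 1 and none higher. Among the 5 lysyl oxidases, which cross-link the chains, Lox (-4.07) and Loxl2 (-3.06) were scored, while Loxl3 (-1.74), Loxl1 (-0.68) and Loxl4 (0.70) were not. The prolyl hydroxylase genes P4ha1 and P4ha2 differed by -0.74 and -0.63.

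Other matrix genes showed the same side with a wider spread. Of 42 glycoprotein and proteoglycan genes 22 were lower by at least 1 and 1 was higher, with a median of -1.09. Among matricellular genes, whose products tune adhesion, 10 of 12 were lower, led by tenascin C. Tnc stood at -0.15 with JICD1 and 5.86 with NICD1 in the authors' deposited tables, a difference of -6.01. Its JICD1 score was 0.2026, with a ratio where no floor could be inferred. A level near 0 may thus set the size of that difference. Ccn5 (-5.52) and Thbs1 (-2.80) followed, and Ccn3 (1.34), without a score of 0.8, was the higher member. All 10 elastic fibre genes lay below 0, with Fbln1 at -6.51 and Fbln5 at -2.40. In contrast, heparan sulphate carriers had a median of -0.33 and 6 of 7 lay between -1 and 1. Gpc4 shows why a small difference does not mean a small ratio. It stood at 8.96 with JICD1 and 8.63 with NICD1 in the authors' deposited tables, a difference of 0.33. Has2 was set apart among the hyaluronan synthases, at -8.65 against 0.05 for Has1 and 0.16 for Has3. The JICD1 group of the decorin gene Dcn was inferred at the floor, with ratios of -8.67 and -5.08 in the authors' deposited tables.

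Genes for matrix breakdown were split. Of 29 measured, 15 were lower by at least 1 and 2 were higher, with a median of -1.52, or of -0.82 without the genes inferred at the floor. Mmp10, a stromelysin gene, and Mmp3 and Mmp13 of the same cluster lay far apart in the 2 groups, whereas Mmp12, also of that cluster and not scored, differed by 0.36. Mmp3 stood at -5.38 with JICD1 and 3.96 with NICD1, and Mmp13 at -3.30 and 6.17, in the authors' deposited tables, with the JICD1 group of both inferred at the floor. Mmp9 differed by -4.09 and Mmp2 by -1.58. Membrane-bound Mmp14 differed by only 0.39, and Mmp24, not scored, by 2.68. In the plasminogen system the urokinase gene Plau stood at -4.79 with JICD1 and 1.36 with NICD1 in the authors' deposited tables, a difference of -6.15, whereas its receptor gene Plaur differed by -0.04. Of 4 inhibitor genes Timp1 (-1.69) was lower and Reck (1.38, not scored) higher by at least 1.

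The promoters of these 3 protease genes on chromosome 9 are shown because each holds 1 AP-1 motif, TGANTCA, in the 120 bases before its start. The motif reads the same on both strands, and is printed in capitals at 63, 46 and 35 bases before the start of Mmp10, Mmp3 and Mmp13. The windows are chr9:7502222-7502341, chr9:7445702-7445821 and chr9:7272394-7272513 of GRCm38.p6, all on the plus strand.
Mmp10: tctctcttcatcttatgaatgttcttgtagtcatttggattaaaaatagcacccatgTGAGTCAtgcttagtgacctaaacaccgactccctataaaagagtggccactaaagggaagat
Mmp3: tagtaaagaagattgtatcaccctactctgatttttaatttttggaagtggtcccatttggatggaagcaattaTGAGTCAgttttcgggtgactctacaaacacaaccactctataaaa
Mmp13: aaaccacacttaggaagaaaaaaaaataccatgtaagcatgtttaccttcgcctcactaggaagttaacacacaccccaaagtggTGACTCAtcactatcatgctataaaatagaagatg
Over the 250 bases before the start, TGANTCA was found in 4 of 10 metalloproteinase promoters, in 11.9% of the promoters of scored lower genes (34 of 286), in 6.45% of those of scored higher genes (8 of 124) and in 6.08% of all genes of the tables. The share over all RefSeq promoters of that length was 6.75%. Among promoters of scored genes with a difference between -1 and 1 it was 8.57% (15 of 175). AP-1 is the dimer of Fos and Jun proteins, and its genes were uneven. Junb differed by -2.03 with a score of 0.8 or more, Fos and Fosb by -2.51 and -2.15 without one, and Jun and Fosl1 by 0.07 and 0.75.

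Adhesion genes followed the matrix in part. Of 54 measured, 22 were lower by at least 1 and 4 were higher, with a median of -0.57. The desmosome gene Pkp1 (-6.77) had the largest scored difference, followed by Cdh11 (-3.16), a mesenchymal cadherin, and the fibronectin receptor subunit Itga5 (-2.65). Of 17 integrin genes 14 lay below 0. Itgb7 was the scored exception, at -0.51 with JICD1 and -2.87 with NICD1 in the authors' deposited tables, a difference of 2.36. Laminin genes had a median of -0.16. The 9 mesenchymal transcription factors had a median of -0.15. Snai1 stood at -3.55 with JICD1 and 0.05 with NICD1 in the authors' deposited tables, a difference of -3.60, and Prrx1 differed by -2.14. Snai2 stood above 4 in both, at 4.45 and 4.50 in the authors' deposited tables, and differed by -0.05.

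Chemokine and cytokine genes formed the other large separation. Of 21 chemokine and receptor genes 15 were lower by at least 1 in the libraries labelled JICD1 and 1 was higher, with a median of -1.43. Cxcl12 has been given above; Ccl9 (-3.12), Cxcl10 (-2.79), Ccl7 (-2.52) and Ccl2 (-1.76), which attract monocytes or T cells, were also scored. Cxcl10 stood at -0.86 with JICD1 and 1.93 with NICD1 in the authors' deposited tables. Ccl7 lay below control in both, at -4.49 and -1.97 in the authors' deposited tables. The higher member was Cxcl3, a neutrophil chemokine, at 6.58 and 5.56 in the authors' deposited tables, a difference of 1.02.

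Of 32 cytokine and NF-kB genes 17 were lower by at least 1 and 1 was higher, with a median of -1.27. The interleukin-1 family carried the largest values, with all 6 measured members at -1 or less. Il1rn, the receptor antagonist, stood at -10.23 with JICD1 and -3.06 with NICD1 in the authors' deposited tables, a difference of -7.17. Its JICD1 ratio is larger in size than 9.45, the end of the range in which a floor could be inferred. The size of that difference may thus be set by a level near 0. The cytokine gene Il33 stood at 0.57 and 4.93 in the authors' deposited tables, a difference of -4.36. With JICD1 Il33 had a score of 0.2002 and a ratio where no floor could be inferred, so a level near 0 may set that size. Its receptor gene Il1rl1 stood at -4.95 and -0.40 in the authors' deposited tables, a difference of -4.55. Ligand and receptor thus lay on the same side by different courses, the ligand high with NICD1 and the receptor low with JICD1. Il18 differed by -4.12 and Il11, of the interleukin-6 family, by -4.40. The NF-kB subunit genes Rela, Nfkb1 and Relb differed by 0.06, 0.45 and -0.59, while the feedback genes Nfkbia and Tnfaip3 differed by -1.40 and -1.37, none of these scored.

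Prostaglandin and leukotriene genes split by enzyme. The cyclooxygenase genes Ptgs1 and Ptgs2 differed by -5.57 and -2.0 and the leukotriene synthase gene Ltc4s by -4.20. The prostaglandin D2 synthase gene Ptgds went the other way, at 4.50 with JICD1 and 0.47 with NICD1 in the authors' deposited tables, a difference of 4.03. With NICD1 Ptgds had a score of 0.2556 and a ratio where no floor could be inferred, so a level near 0 may set that size. Of 23 interferon-induced genes 8 were lower by at least 1, 1 was higher and 14 lay between, with a median of -0.55, and 10 genes of interferon signalling had a median of -0.21. The membrane protein genes Ifitm1 (-5.19) and Ifitm3 (-1.16) and the factor Irf1 (-1.65) were the scored members past 1. In antigen presentation 10 of 13 genes lay below 0. Psmb8, an immunoproteasome subunit, stood at 3.14 and 5.31 in the authors' deposited tables, a difference of -2.16. Nlrc5, the transactivator of class I genes, differed by 4.0 and was not scored.

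Reactive astrocyte markers lay on the same side as the cytokines. Of 17 measured, 12 were lower by at least 1 and 1 was higher, with a median of -2.0 and a range from -6.88 to 1.08. S1pr3 (-6.88), Cp (-2.60), Psmb8 (-2.16) and Ptx3 (-2.06) were the scored members with the largest values, S1pr3 with a control inferred at the floor. Lcn2, one of the most used of these markers, stood at 1.83 in both of the authors' deposited tables, with a control inferred at the floor, and Gfap differed by 0.16. Markers of other cell types moved as well. Of 8 measured microglia and macrophage markers 5 were lower by at least 1, with a median of -2.34 and a range from -7.12 to 0.69, and the single scored one was Tmem119. Of 8 fibroblast and pericyte markers 5 were lower by at least 1, Pdgfrb (-2.25) among them, and their median was -2.09. The endothelial and oligodendrocyte lists had medians of -0.08 and 0.09 over 7 genes each. For 8 neuron markers it was -0.83. Since the tables give no levels, the summed level of these markers in each group is unknown, and their part in the matrix and cytokine values was not tested. In bulk RNA, fewer cells of a type and less RNA per cell cannot be told apart.

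**Figure D4:**
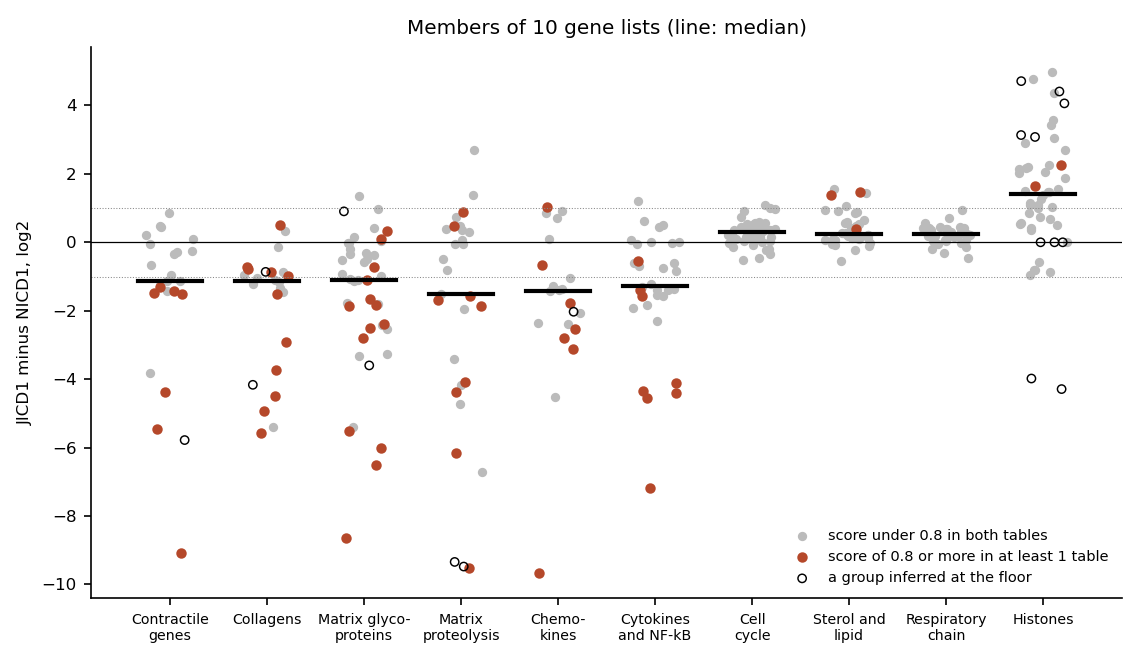
Difference of every measured member of 10 lists (y axis, log2, JICD1 minus NICD1), with the list median as a line and dotted lines at 1 and -1; filled red points have a score of 0.8 or more in at least 1 table, grey points do not, and open circles have a group inferred at the floor. The 6 lists on the left have medians between -1.52 and -1.09 with long lower tails, and the cell cycle, sterol and respiratory chain lists form tight clouds just above 0.

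Growth factor genes had lower members in every role. Of 24 ligand genes 11 were lower by at least 1 and 3 were higher, of 18 receptor kinase genes 6 and 2, and of 6 genes for IGF-binding proteins 3 and 0. Areg, which activates the EGF receptor, stood at 3.95 with JICD1 and 7.82 with NICD1 in the authors' deposited tables, a difference of -3.86. The receptor gene Egfr itself stood at -4.76 and -0.51 in the authors' deposited tables, a difference of -4.25. Pdgfb and its receptor gene Pdgfrb differed by -3.67 and -2.25, and Vegfc and Vegfa by -2.93 and -1.40. Gas6, the ligand of Axl, was the scored exception at 1.70. Genes that respond early to such factors also lay low, with 11 of 28 at -1 or less, among them Egr1 (-2.43), Dusp5 (-2.22), Junb (-2.03) and Egr3 (-1.49), each scored.

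In the Wnt pathway the ligands diverged. Wnt7a stood at 1.76 with JICD1 and -1.26 with NICD1 in the authors' deposited tables, a difference of 3.03, and its relative Wnt7b at -8.54 and -3.21, a difference of -5.33. Wnt5b had its JICD1 group inferred at the floor, with -3.49 and 4.61 in the authors' deposited tables. Of 7 antagonist genes 6 were lower by at least 1, and Sfrp1 (-7.50) was scored. With JICD1 Sfrp1 stood at -0.92 (score 0.1632) in the authors' deposited table, where no floor could be inferred. The size of its difference may thus be set by a level near 0. The central gene Ctnnb1 had a difference of 0.08. The targets Axin2 and Lef1 pointed opposite ways, at 1.51 and -2.10 without a score of 0.8.

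Guidance and neural genes gave members on both sides. The guidance receptor gene Robo1 stood at -0.97 with JICD1 and 7.46 with NICD1 in the authors' deposited tables, a difference of -8.43, and Epha4 (-4.51), Sema6d (-4.10) and Sema7a (-3.90) followed. The JICD1 scores of Robo1 and Sema6d were 0.1635 and 0.1768 in the authors' deposited table. Both JICD1 ratios lay between -1 and 1, where no floor could be inferred. The size of these differences may thus be set by a level near 0. Higher by at least 1 and scored were the netrin receptor gene Unc5c (1.86) and the semaphorins Sema3c (1.53) and Sema3b (1.34). Of 41 guidance genes 10 were lower and 6 higher. Among neurite genes Stmn2 (-5.61) and the tubulin gene Tubb3 (1.51) were scored on opposite sides. Among neural stem factors Pou3f2 (8.32) stood opposite Pou3f3 (-1.34), a close relative that lay above control in both, at 5.62 and 6.95 in the authors' deposited tables. Sox11 had its JICD1 group inferred at the floor, with -5.89 and 4.63 in the authors' deposited tables. Sox2, the neural stem cell factor, differed by 0.53.

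Hox genes, which set position along the body axis, were the developmental group with most members on the higher side, 7 of 16 against 3 lower, although the median was 0.25. Hoxb6 stood at 3.35 with JICD1 and -3.10 with NICD1, and Hoxa10 at -2.33 and -6.48, in the authors' deposited tables. Only 2 of the 7 higher members were scored, and none of the 3 lower ones. A group was inferred at the floor for 4 of the 16 genes. Hoxa7 (1.53) and Hoxa9 (1.08), in the same cluster as Hoxa10, were also higher without a score of 0.8.

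Housekeeping lists lay on the higher side by small amounts. Of 49 cell cycle genes 41 had a difference above 0, with a median of 0.31, but only Ccna2 (1.10) and Cenpe (1.01) passed 1 and none was scored. After the median of each gene's chromosome was subtracted, the cell cycle median was 0.23. Of 33 respiratory chain genes 27 lay above 0, with a median of 0.24 and none past 1. In both lists the median ratio over control was slightly above 0 with JICD1 (0.11 and 0.04) and below it with NICD1 (-0.13 and -0.18). Over all genes 9542 of 18182 lay above 0. Ribosomal protein genes had a median of 0.04, the same as all genes. Whether differences of this size exceed the spread between libraries was not tested, because the tables hold no value per library.

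Sterol and fatty acid synthesis genes were also higher, with 33 of 39 above 0, 5 past 1 and a median of 0.24. The phosphomevalonate kinase gene Pmvk (1.47) and the reductase Dhcr7 (1.38) were scored. For the sterol enzymes the median ratio over control was -0.65 with NICD1 and -0.20 with JICD1, so both groups lay below control.

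Among 5 genes for inhibitors of cyclin-dependent kinases only Cdkn2b lay past 1. Cdkn2b stood at 1.81 with JICD1 and 11.24 with NICD1 in the authors' deposited tables. Cdkn1a, the p53-induced inhibitor, was above control in both, at 2.35 and 1.57 in the authors' deposited tables, a difference of 0.77. Among 20 p53 targets 13 lay above 0, with a median of 0.49, but 4 were lower by at least 1 against 2 higher. The lower ones, none of them scored, included the death receptor gene Fas (-2.62). Perp, a desmosome gene induced by p53, stood at -1.22 with JICD1 and -4.28 with NICD1 in the authors' deposited tables, a difference of 3.06. Further scored members of other lists were the antioxidant gene Nqo1 (-2.32), the imprinted genes Snrpn (-5.51) and Mest (1.20), the developmental factor Foxf1 (-3.86), and the hypoxia gene Pdk1 (-1.03). The median was -0.16 for hypoxia and glycolysis genes, and for endoplasmic reticulum stress genes, Creb3l1 included, it was -0.01.

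Replication-dependent histone genes, a group added after its values were seen, had the highest list median. Of 52 measured, 32 were higher by at least 1 in the libraries labelled JICD1 and 2 were lower, with a median of 1.42. The linker histone gene H1f2 stood at 2.74 with JICD1 and 0.49 with NICD1 in the authors' deposited tables, a difference of 2.25. H2bc4 stood at 2.96 and 1.30 in the authors' deposited tables, a difference of 1.65. These 2 were the scored members, and 10 members had a group inferred at the floor. Messages of these genes end in a stem loop and have no poly(A) tail, so their level in a library depends on how RNA was selected, which was not given in the sources used here. Near-identical copies share reads within this family. A sequence for an H2B gene is shown because these promoters hold a conserved octamer: ATTTGCAT, on either strand, was found in 5 of 10 H2B promoters, against 1.62% of all genes of the tables and 1.60% of all RefSeq promoters. The window is chr13:23571280-23571399 of GRCm38.p6 on the plus strand, with the octamer in capitals 59 bases before the start.
H2bc8: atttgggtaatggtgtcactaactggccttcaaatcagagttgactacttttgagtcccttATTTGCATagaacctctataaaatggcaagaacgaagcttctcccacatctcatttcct

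Terms of the Gene Ontology that the authors' tables attach to genes gave a view that does not rest on chosen lists. There were 1123 terms with 15 to 300 genes, of which 35 had a median difference of -0.5 or less and 3 had one of 0.5 or more. The lowest was positive regulation of endothelial cell migration, with a median of -1.63 and 13 of 25 genes lower by at least 1. Its leading members include Prl2c3 and its copies, a proliferin family in which 67.0% of the 31-base words of Prl2c3 are shared with other genes, so reads may be split between copies. Next came cytokine activity (-1.43, 17 of 23 genes lower), positive regulation of leukocyte chemotaxis (-1.34) and platelet alpha granule (-1.14), which hold Cxcl12, Ccl7, Thbs1, Pdgfb and Vegfc. Autonomic nervous system development (-1.12), axon regeneration (-1.08) and neuroblast proliferation (-1.01) came after these. Smooth muscle contraction (-0.99), cell junction assembly (-0.97) and cytokine receptor activity (-0.96) completed the 10 lowest. The highest were learning (0.73, 6 of 16 genes higher by at least 1), excitatory extracellular ligand-gated ion channel activity (0.60) and cyclic-nucleotide-mediated signaling (0.54). These 3 terms held few scored genes, namely Asic1 in the first and Chrnb1 in the second. Terms of the nervous system thus stood at both ends of the ranking.

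Position in the genome separated the groups as well. The median difference was 0.50 for 831 genes on chromosome 3, -0.40 for 674 genes on chromosome 15 and -0.21 for 557 genes on chromosome 19, whereas the other 17 chromosomes with 200 genes or more lay between 0.00 and 0.08. On chromosome 3 the median ratio over control was 0.53 with JICD1 and 0.00 with NICD1. On chromosome 15 it was -0.47 with JICD1 and -0.06 with NICD1. On chromosome 19 both groups lay above control, at 0.17 and 0.44. The difference was above 0 for 72.7% of genes on chromosome 3, 22.1% on chromosome 15 and 30.2% on chromosome 19, against 50.1% to 57.1% elsewhere.

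The shift ran along the whole of each of these chromosomes. In 16 windows of 50 neighbouring genes on chromosome 3 the median lay between 0.28 and 0.65, in 13 windows on chromosome 15 between -0.77 and -0.18, and in 11 windows on chromosome 19 between -0.34 and -0.09. The other 311 windows lay between -0.30 and 0.76. The top of that range was 1 window on chromosome 13 in which 28 of 50 genes are histone genes; without them its median was 0.18, and the other 310 windows reached 0.40. After each gene's chromosome median was subtracted, the median of S100 and annexin genes, of which the S100a genes all lie on chromosome 3, came from 0.497 to 0.12, and that of the neural stem factors from -0.45 to -0.86. Pmvk, also on chromosome 3, came to 0.97. The tables hold no measurement of DNA, and the cause of the shifts was not tested.

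**Figure D5:**
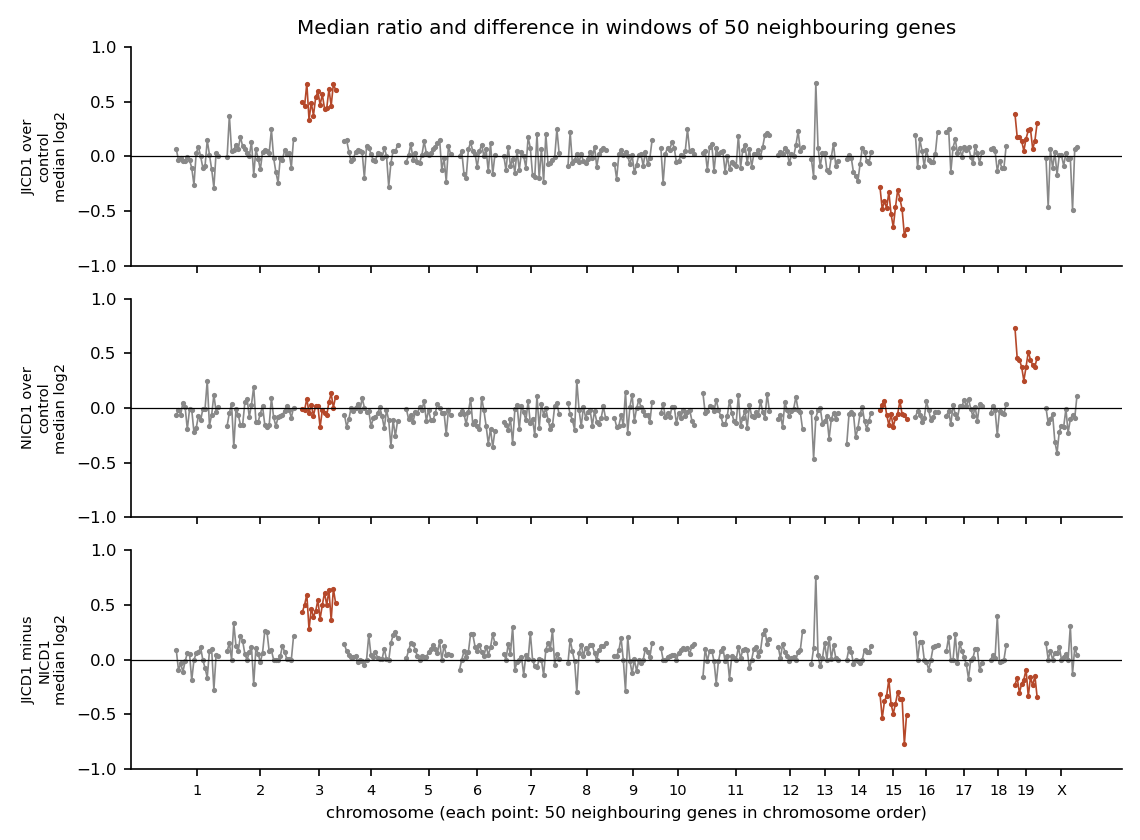
Median log2 ratio over control for JICD1 (top) and NICD1 (middle) and their difference (bottom) in successive windows of 50 neighbouring genes, ordered along each chromosome on the x axis. Chromosomes 3, 15 and 19 are in red: chromosome 3 lies above 0 and chromosome 15 below 0 with JICD1, and chromosome 19 lies above 0 in both groups; the single peak on chromosome 13 is the window of histone genes.

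On the Y chromosome the broadly expressed genes Kdm5d, Eif2s3y, Uty and Ddx3y differed by 0.15 to 0.60, while the multicopy Rbmy and Gm3376 differed by 5.64 and 5.67. A set of 5 gene models of repeated sequence, chosen after their values were seen, also had much higher ratios in the libraries labelled JICD1. Their differences were 5.47 for Gm10719, 4.58 for Gm10717, 4.50 for Gm11168, 4.28 for Gm10800 and 4.16 for Gm10801. They share between 36.2% and 71.0% of their 31-base words with 11 other genes each, so reads could not be assigned to 1 of them with certainty. Across genes, which are not independent replicates, the difference had a Spearman correlation of 0.011 with transcript length and -0.024 with GC content over 17792 genes.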

How the data were processed

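RNA-seq of 9 libraries (3 control, 3 JICD1, 3 NICD1) was deposited as 2 tables of the authors' own comparisons. Per the file headers, each holds 1 log2 ratio over control for every gene and a score between 0 and 1 headed Probability. Its method, and how the authors combined libraries, was not given in the sources used here. Bowtie2, BWA and mm9 stand in the submitters' processing notes without a role, while the gene descriptions in the deposited tables carry GRCm38 positions.

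The differences, list medians, chromosome medians and motif searches were computed in Python 3.11.15 with pandas 2.3.3 and numpy 2.4.6. The scripts were tested on simulated data. With 1 ratio per gene, the planned count test was not possible. A symbol stood in the tables for 7111 of the 18182 genes; 10825 of the other 11071 were named from NCBI gene records and GENCODE vM21 of GRCm38, and 99.5% of genes had a chromosome. Floors were inferred from 694 genes with equal negative ratios in both tables (tolerance 1e-06) and from genes on the same curve of ratio and score (within 0.002, or 0.01 above a log2 of 6), for ratios of at least 1.

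Named genes were Jag1, Notch1, all Notch effectors, the 12 highest and 12 lowest scored differences among established symbols without a group at the floor, and in each list up to 4 scored members past 1; other names were chosen after their values were seen. Not every gene that this rule selects is named in the text. The members and lists were chosen with earlier results of these data known. RefSeq promoters were matched for 82 of 126 named genes. Promoters were also searched for the CArG box and the CCAAT box. The CArG box stood in 1.75% of promoters of scored lower genes, 0.0% of scored higher and 1.45% of all genes. For the CCAAT box these shares were 35.3%, 41.9% and 40.1%. Alternatives were other thresholds, no floor genes, centring by all genes or by chromosome, and the tables' own symbols.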

Additional observations from a re-analysis of the deposited data

Results flagged for a closer look

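Genes with a ratio in only 1 of the authors' deposited tables enter no difference. Of 789 genes listed only for JICD1, 779 lay above 0, and of 1105 listed only for NICD1, 1098 did. A gene with no reads in the control and in the other group can only have a ratio above 0, so these shares say nothing of the conditions. Only 1 and 11 of them had a score of 0.8 or more. In the JICD1 table this was Fhl1, a LIM-domain gene of muscle, at 4.07 (score 0.941) in the authors' deposited table. In the NICD1 table the leading ones included the transporter gene Abcg2 at 5.68 (score 0.979), the metalloproteinase gene Mmp16 at 4.49 (score 0.912), the fibrillin gene Fbn2 at 7.84 (score 0.852) and the homeobox gene Msx2 at 7.84 (score 0.852) in the authors' deposited table. Cdkn2a, the gene of Ink4a itself, stood at 7.59 (score 0.827) in the authors' deposited table for NICD1, from cells labelled Ink4a-/-. Which part of that gene the reads cover was not given in the sources used here.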

How the results depend on the processing

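No paired analysis was possible because the tables hold 1 ratio per gene and comparison, with no column for a replicate; for the same reason no library could be left out. Depth is unknown. The 126 genes of the naming rule were run only with centring on all genes or by chromosome. Most were chosen for a difference of 1 or more, so a change of sign was unlikely in advance. Other genes named in the text were not run. None of the 126 changed sign. List medians near 0 did: with the tables' own symbols to 0.10 (Notch components), 0.04 (hypoxia and glycolysis), -0.17 (NRF2 targets), 0.11 (endoplasmic reticulum stress), 0.27 (developmental factors) and 0.03 (astrocyte markers), with chromosome medians subtracted to -0.03 (NRF2 targets), and centred on all genes to -0.0047 (ribosome). The count of higher genes was 733 at a log2 difference of 2, 396 among genes with a score of 0.7 or more and 167 with 0.8 or more; the lower counts were 1218, 726 and 431. Without chromosomes 3, 15 and 19, an alternative chosen after seeing the data, both counts stayed within 1.5 times. Among scored members only, list medians moved to -3.33 (TGF-beta pathway), -1.44 (BMP and Id), -2.40 (matrix glycoproteins), -4.09 (matrix proteolysis), -1.03 (adhesion), -2.52 (chemokines), -4.24 (cytokines and NF-kB), -1.81 (eicosanoids), -1.76 (early response), -1.34 (neural stem factors), -1.50 (axon guidance), -1.11 (Wnt pathway), -2.15 (growth factors) and -2.59 (fibroblast and pericyte markers). With the tables' own symbols they moved to -2.14 (Notch effectors), -0.73 (BMP and Id), -0.20 (neurite genes), -0.86 (growth factors), -1.23 (reactive astrocyte markers) and 1.94 (histones). Without genes at the floor they moved to -0.82 (matrix proteolysis) and -1.40 (microglia). Lists left with fewer than 5 members gave no value. Centring on all genes took Hes6 to -1.01 and Igf2r to 0.99; subtracting chromosome medians took Bcl6 to 0.96 and Pmvk to 0.97.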
